A study of Mus musculus with 21 samples.

Results

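The outer dense fibers and the fibrous sheath are the cytoskeletal structures that surround the axoneme of the mouse sperm tail. The 10 genes described here were chosen by name, and all 10 were found among the 24456 genes counted in every library. *Odf1*, *Odf2*, *Odf3* and *Odf4* carry the outer dense fiber name. *Akap3*, *Akap4*, *Fscb*, *Ropn1*, *Ropn1l* and *Cabyr* encode proteins of the fibrous sheath or its partners.

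RNA was measured in 21 libraries of cell fractions purified from mouse testis, from wild-type animals (*H2al2* WT, called WT) and from animals lacking the histone variant H2A.L.2 (*H2al2* KO, called KO). Pachytene spermatocytes, round spermatids and condensing spermatids had 3 libraries of each genotype, and spermatozoa had 2 WT libraries and 1 KO library. The tissue is labelled testis in all groups, spermatozoa included, and age, strain and the way the allele was made are not given in the sources used here. The study describes the WT round spermatid libraries as biological replicates. For the other groups nothing in the labels ties a replicate to a separate animal, so there p-values measure only the spread between these libraries, which may be technical. The spread between WT round spermatid replicates 2 and 3 may be technical too, as described below.

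The outer dense fibers run along the axoneme through the midpiece and principal piece and stiffen the tail. ODF1 and ODF2 are their major structural proteins. The fibrous sheath encloses the fibers in the principal piece, and its main proteins AKAP4 and AKAP3 are anchoring proteins that hold protein kinase A. Ropporin (*Ropn1*) and its relative *Ropn1l* share a docking domain with the regulatory subunits of that kinase and bind anchoring proteins, *Cabyr* encodes a calcium-binding protein phosphorylated during capacitation, and *Fscb* encodes a calcium-binding protein that binds CABYR. The tail is built in spermatids, after meiosis, and transcription ceases as the nucleus condenses.

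Total counts on genes ranged from 2772995 to 8201682 per library, with a median of 6872271. Levels are given as normalized CPM, the read count of a gene relative to its library's total, scaled with TMM factors over all 21 libraries, and are therefore shares of a library and not amounts per cell. In these bulk fractions, fewer cells of a type and less RNA per cell cannot be told apart. The gene of H2A.L.2, listed as *H2afb1*, was lower in the KO libraries of each stage, at 14% of the WT mean in pachytene cells, 11.6% in the round and 15.4% in the condensing fraction and 28.4% in spermatozoa, and was not at 0 in any KO library. The WT round spermatid replicates 2 and 3 were closer to each other than any other pair, with a mean chi-square of 1.06 per gene against 1.9 to 12.2 in the other pairs, and were kept as 2 libraries. The value of 1.06 is near what counting error alone gives. Whether these 2 libraries came from separate cell preparations, as the study's description implies, was not tested. Summed markers of spermatocytes, such as *Sycp3*, were at 1704 to 2902 normalized CPM in the pachytene libraries and at 291 to 488 in the round spermatid libraries, and those of round spermatids, such as *Acrv1*, at 219 to 346 and at 1097 to 1313.

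In GENCODE M21 on GRCm38 (mm10), *Odf1* spans chromosome 15 from 38219203 to 38226735, *Odf2* chromosome 2 from 29889221 to 29931746, *Odf3* chromosome 7 from 140847805 to 140851018 and *Odf4* chromosome 11 from 68921835 to 68927081. *Akap3* spans chromosome 6 from 126853098 to 126874308, *Akap4* chromosome X from 7067519 to 7078609 and *Fscb*, with a single exon, chromosome 12 from 64471330 to 64474690. *Ropn1* spans chromosome 16 from 34649921 to 34678618 and *Ropn1l* chromosome 15 from 31441211 to 31453737. Counts were summed over their exons. No member shared a transcript window of 75 bases, the read length, with another annotated gene except *Odf2*, for which 0.217% of windows also matched *Gm23865*.

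Promoter sequence, from RefSeq on GRCm38.p6, was at hand for 8 of the 10 genes. The sequences before the start of *Akap4* and *Fscb*, which rose most from pachytene spermatocytes to round spermatids in WT, and of *Odf4* and *Ropn1l*, which rose least, are printed 5′ to 3′ on the strand of the gene, with each CG dinucleotide in capitals. They are on chrX:7067265-7067514 (plus strand), chr12:64474899-64475148 (minus), chr11:68927082-68927331 (minus) and chr15:31453738-31453939 (minus).
Akap4: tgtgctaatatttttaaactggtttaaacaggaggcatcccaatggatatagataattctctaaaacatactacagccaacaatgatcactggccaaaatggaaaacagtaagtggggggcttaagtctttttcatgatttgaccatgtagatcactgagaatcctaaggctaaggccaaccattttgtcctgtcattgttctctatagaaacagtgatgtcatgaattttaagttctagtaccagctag
Fscb: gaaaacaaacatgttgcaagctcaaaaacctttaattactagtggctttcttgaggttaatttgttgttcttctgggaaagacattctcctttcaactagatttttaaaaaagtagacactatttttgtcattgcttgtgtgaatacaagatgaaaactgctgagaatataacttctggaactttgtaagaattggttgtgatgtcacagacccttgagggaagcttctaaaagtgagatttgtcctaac
Odf4: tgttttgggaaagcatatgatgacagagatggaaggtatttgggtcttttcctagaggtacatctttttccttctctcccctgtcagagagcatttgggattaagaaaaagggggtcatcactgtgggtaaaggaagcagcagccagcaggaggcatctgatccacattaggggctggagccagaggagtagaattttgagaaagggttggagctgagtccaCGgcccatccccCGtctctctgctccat
Ropn1l: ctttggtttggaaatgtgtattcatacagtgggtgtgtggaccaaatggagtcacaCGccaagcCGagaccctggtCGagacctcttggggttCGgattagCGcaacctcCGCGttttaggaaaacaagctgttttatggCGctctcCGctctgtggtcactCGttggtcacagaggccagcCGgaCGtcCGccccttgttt

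CG dinucleotides were rare in most of these promoters. The RefSeq table holds 1 or more start sites per gene, and CGs were counted in the 250 bases before the first site listed. For *Odf2* and *Ropn1* that window lies inside the annotated gene, downstream of its outermost start. The window of *Odf3* lies partly inside, since it ends at 140847915 and GENCODE starts the gene at 140847805. There was no CG in *Akap3*, *Akap4* and *Fscb*, 1 in *Odf3*, 2 in *Odf4* and in *Ropn1*, 18 in *Ropn1l* and 22 in *Odf2*. The *Ropn1l* sequence printed above leaves out the bases of this window that GENCODE places within the gene, and its 202 bases hold 13 of the 18. The median over 27025 genes was 6, with at most 2 in 29.6% of genes and at least 18 in 21.6%. Motifs were searched on both strands in all windows listed for a gene. The GC-box letters GGGCGG were found in *Odf2* and *Ropn1l* and in 35.4% of all promoters. CCAAT was found in *Odf2*, *Akap3*, *Akap4* and *Fscb* (in *Odf2* only in windows after the first) and in 37.5% of all promoters, and ACAATG in *Odf3* and *Akap4* and in 12.2%. TGACG, which is contained in TGACGTCA, was found only in *Odf2* of the 8, and in 19.8% of all promoters. Neither TGACGTCA (1.77% of all promoters) nor TATAAA (14.3%) was found in these windows.

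The first comparison asked how the RNA of the tail genes changed as meiotic cells became haploid. All 10 genes rose from pachytene spermatocytes to round spermatids in WT (edgeR quasi-likelihood test, Benjamini-Hochberg adjusted over 14011 genes). Over all genes tested, 34.4% were called higher. The median log2 change of the 10 genes was 2.15, against -0.02 over all genes tested.

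*Akap4* was at 709, 618 and 351 normalized CPM in the WT pachytene libraries and at 3537, 3763 and 3705 in the WT round spermatid libraries. The stages did not overlap, and replicate 3 was the lowest pachytene library. The log2 change was 2.74 (SE 0.24, adjusted p = 4.55e-07, edgeR), or 6.67-fold. *Fscb* rose by the same log2 change of 2.74 (SE 0.19, adjusted p = 7.73e-08, edgeR), from 142, 108 and 92.3 normalized CPM to 689, 801 and 766.

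*Odf1* was at 348, 378 and 191 normalized CPM in WT pachytene spermatocytes and at 1619, 1658 and 1699 in WT round spermatids. Its log2 change was 2.46 (SE 0.22, adjusted p = 4.98e-07, edgeR). *Cabyr* rose by a log2 change of 2.23 (SE 0.19), *Akap3* by 2.20 (SE 0.21), *Ropn1* by 2.09 (SE 0.23) and *Odf3* by 1.83 (SE 0.13). These 7 genes rose at least 3.56-fold.

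*Odf2* already had the most reads of the 10 genes in pachytene spermatocytes, at 2462, 2474 and 1719 normalized CPM, and reached 5863, 5942 and 5983 in round spermatids. Its log2 change of 1.44 (SE 0.17, adjusted p = 4.95e-06, edgeR) stood between the 7 genes with larger changes and the remaining pair. *Odf4* rose by a log2 change of 0.43 (SE 0.11, adjusted p = 0.00366, edgeR) and *Ropn1l* by 0.30 (SE 0.12, adjusted p = 0.0394, edgeR). With scaling to library size alone, neither passed, at 0.25 (adjusted p = 0.0619, edgeR) and 0.11 (adjusted p = 0.42, edgeR). The median log2 change of all genes tested was -0.20 under that scaling, against -0.02 with TMM. The *Ropn1l* call was also lost in 8 other alternatives, with adjusted p up to 0.115.

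The KO libraries, which share no sample with WT, gave the same direction for all 10 genes. All 10 were called higher in round spermatids than in pachytene spermatocytes, where 36.5% of 13877 genes were. The log2 changes ran from 0.41 for *Ropn1l* (SE 0.09) to 2.89 for *Akap4* (SE 0.13), with a median of 2.26 and adjusted p of at most 0.000587 (edgeR). *Akap4* went from 470, 486 and 436 normalized CPM to 3455, 3843 and 3160, and *Ropn1l* from 714, 732 and 817 to 1047, 960 and 1038.

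**Figure D1:**
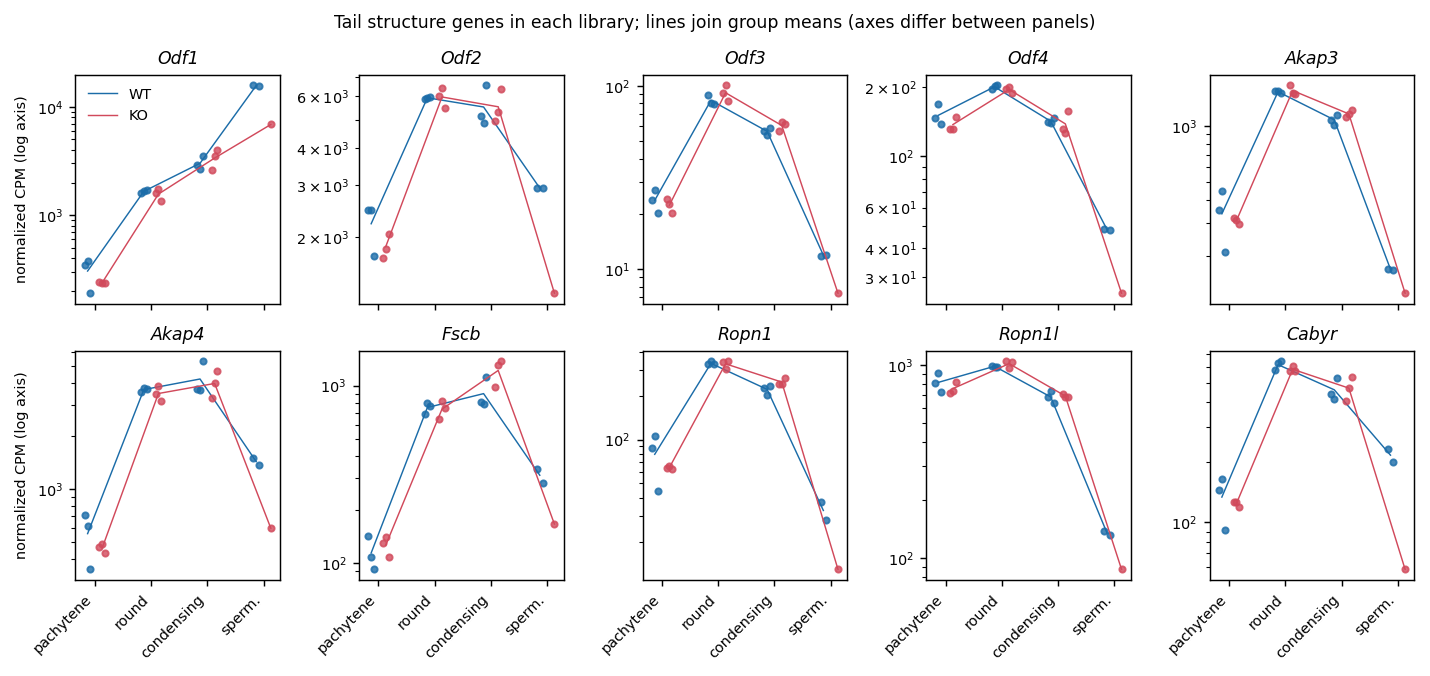
Normalized CPM of each gene on a log axis in each of the 21 libraries, by stage, with 1 point per library, WT in blue, KO in red and lines through the group means. All panels but that of *Odf1* fall from condensing spermatids to spermatozoa, whereas *Odf1* climbs to 15892 and 15498 in the WT spermatozoa libraries, and the single KO spermatozoa point lies below both WT points in every panel.

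Pachytene levels differed in how far they lay below round spermatid levels. In WT, the pachytene mean was 82.5% of the round spermatid mean for *Ropn1l*, 75.2% for *Odf4* and 37.4% for *Odf2*, and between 15.2% and 28.5% for the other 7 genes. The condensing spermatid markers *Tnp1*, *Tnp2*, *Prm1*, *Prm2* and *Prm3* encode transition proteins and protamines. Their RNAs stood at 14.2% to 18.7% of their round spermatid mean in the same WT pachytene libraries. In KO the 10 tail genes stood at 13.3% to 74.3%, and these 5 markers at 9.56% to 13.9%. All 5 were detected, and their summed level was 3568, 3348 and 1279 normalized CPM in WT replicates 1, 2 and 3 and 1767, 1934 and 1739 in the KO replicates. Round and condensing spermatids overlapped in this summed level, so it does not tell these stages apart. The summed level of the 10 tail genes was 5222, 5398 and 3579 normalized CPM in WT and 3928, 4071 and 4296 in KO. Both sums were lowest in replicate 3 in WT, whereas in KO replicate 3 the tail genes were highest and the markers lowest. All 10 genes were lowest in WT pachytene replicate 3, as were 58.2% of genes with at least 10 CPM. What part of the pachytene levels came from later cells was not tested.

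The second comparison followed the genes into condensing spermatids, in which the nucleus is compacted and the tail grows. Here the genes parted. In WT, *Odf1* alone rose, *Odf3*, *Odf4* and *Ropn1l* fell, and the other 6 did not pass the test. Of the 14011 genes tested, 28.3% were called higher and 21.8% lower. The comparison uses the same round spermatid libraries as the first.

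*Odf1* went from 1619, 1658 and 1699 normalized CPM in WT round spermatids to 2892, 2666 and 3480 in WT condensing spermatids. The stages did not overlap, and the log2 change was 0.89 (SE 0.21, adjusted p = 0.00342, edgeR). *Odf3* fell to 67.8% of its round spermatid mean (log2 change -0.53, SE 0.12), *Odf4* to 70.9% (-0.47, SE 0.11) and *Ropn1l* to 69.4% (-0.50, SE 0.12), each with an adjusted p of at most 0.00417 (edgeR).

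Values for *Ropn1* (log2 change -0.56, adjusted p = 0.051), *Akap3* (-0.47, adjusted p = 0.0704) and *Cabyr* (-0.39, adjusted p = 0.0894) lay near the threshold in WT (edgeR). All 3 passed with the DESeq2 Wald test, with DESeq2 size factors and in a fit on all 18 libraries of the 3 stages, so that 7 genes were called under each of these in place of 4. *Akap4* (0.23, 95% interval from -0.25 to 0.71), *Fscb* (0.29, from -0.09 to 0.67) and *Odf2* (-0.08, from -0.43 to 0.28) stayed outside the call.

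In KO, 8 genes were called. *Odf1* rose by a log2 change of 1.12 (SE 0.13, adjusted p = 1.03e-06, edgeR), from 1588, 1757 and 1353 normalized CPM to 2607, 3508 and 3983. *Fscb* rose by 0.74 (SE 0.13, adjusted p = 0.000113, edgeR), from 651, 813 and 745 to 975, 1300 and 1373. *Odf3*, *Odf4*, *Akap3*, *Ropn1*, *Ropn1l* and *Cabyr* fell, by log2 changes between -0.30 for *Cabyr* and -0.58 for *Odf3*. Over all 13877 genes tested in KO, 29.7% were called higher and 24.5% lower. *Cabyr* and *Ropn1* were no longer called in the fit on all 18 libraries (adjusted p = 0.0801 and 0.0516), and *Cabyr* was also lost on leaving out KO condensing spermatid replicate 1 or 2 or KO round spermatid replicate 2.

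Within the condensing fraction the replicates were uneven. The summed level of the 10 genes was 15138, 14498 and 19218 normalized CPM in WT and 14474, 16829 and 19249 in KO. The summed transition protein and protamine RNAs were highest in the same libraries, at 18926, 15870 and 24647 in WT and 15322, 16979 and 23386 in KO. In round spermatids they were at 17576 to 19922 in WT and 15792 to 20852 in KO, which overlaps the condensing range. Summed Sertoli markers (7 of 7 detected) were at 259 to 416 in condensing spermatids against 19.9 to 41.1 in round spermatids, and summed Leydig markers (5 of 5 detected) at 74.7 to 197 against 5.9 to 12.3. Spermatocyte markers (7 of 7 detected) were also higher, at 765 to 952 against 291 to 488, and round spermatid markers (6 of 6 detected) lower, at 649 to 758 against 1097 to 1313. The part of these differences in the changes of the tail genes was not tested.

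**Figure D2:**
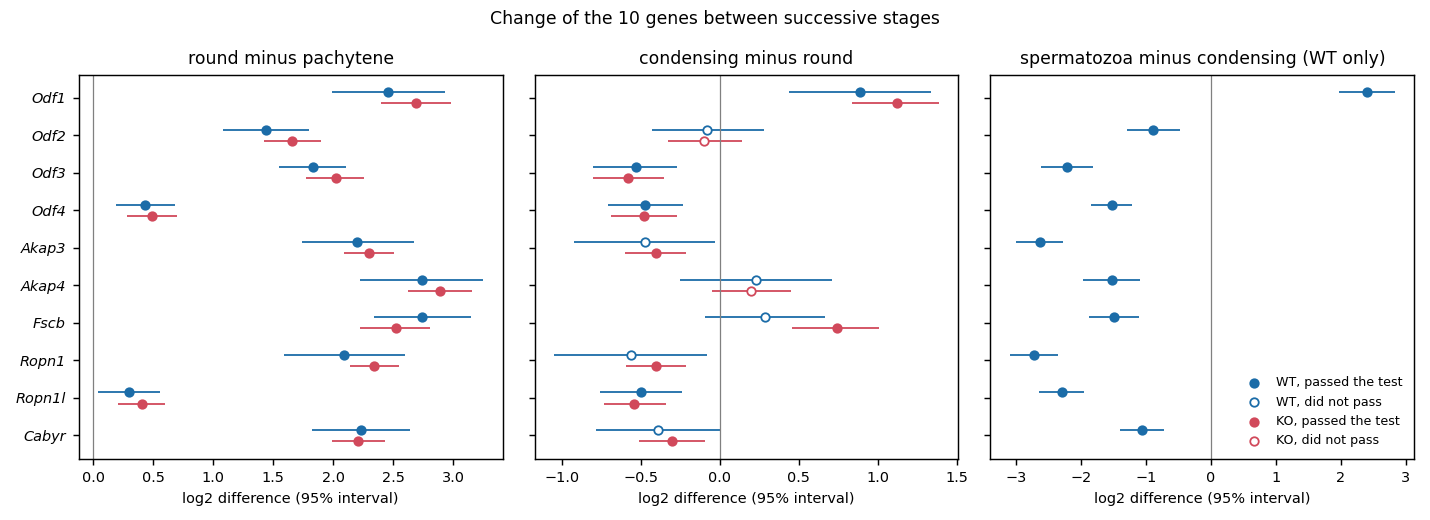
Log2 difference between successive stages for each gene (horizontal axis, with 95% intervals not adjusted for the number of genes), WT in blue and KO in red. Filled circles passed the test and open circles did not. All 10 genes lie right of 0 in the left panel, *Odf1* stands apart at 0.89 and 1.12 in the middle panel and at 2.41 in the right panel, and the other 9 genes lie left of 0 in the right panel.

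The third comparison reached spermatozoa, in WT only. All 10 genes changed, *Odf1* upward and the other 9 downward (edgeR, 15116 genes tested). Among all genes tested, 36.6% were called higher and 35.8% lower, and the median log2 change of the 10 genes was -1.53.

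*Odf1* went from 2892, 2666 and 3480 normalized CPM in condensing spermatids to 15892 and 15498 in spermatozoa, a 5.31-fold rise (log2 change 2.41, SE 0.21, adjusted p = 1.24e-09, edgeR). *Ropn1* fell most, by a log2 change of -2.72 (SE 0.18, adjusted p = 2.13e-11, edgeR), from 226, 203 and 233 to 37.4 and 27.9. *Akap3* (-2.64), *Ropn1l* (-2.30) and *Odf3* (-2.22) fell by similar amounts. *Akap4* was at 3674, 3641 and 5324 in condensing spermatids and at 1499 and 1365 in spermatozoa, a log2 change of -1.53 (SE 0.21, adjusted p = 1.28e-06, edgeR), and *Odf4* (-1.53) and *Fscb* (-1.50) were near it.

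*Cabyr*, on chromosome 18 from 12740322 to 12755260 (-1.06, SE 0.16), and *Odf2* (-0.89, SE 0.20, adjusted p = 0.000487, edgeR) fell least, *Odf2* to 53.1% of its condensing spermatid mean. All 10 calls remained in every alternative run for this comparison, with each library left out in turn. The WT spermatozoa libraries also held RNA of epididymis epithelium markers, at a summed 1807 and 1928 normalized CPM against at most 1.87 in the other 3 fractions, with *Lcn5*, *Lcn8* and *Spint4* at 0, and of macrophage markers at 199 and 211 against at most 22.3. Their part in the changes into spermatozoa, of the 10 genes or of any other gene, was not tested.

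Compared per kilobase of exon, the order of the genes changed from stage to stage. Length was the union of the exons of all basic GENCODE transcripts of a gene, 4685 bases for *Odf2*. With other lengths the order of genes with close values may differ. In WT pachytene spermatocytes *Ropn1l* was the highest at 849 ± 96.4 CPM per kilobase (SD, n = 3), followed by *Odf2* at 473 ± 92.4 and *Odf1* at 277 ± 90.7. From *Odf1* down to *Fscb*, at 33.9 ± 7.56, each gene overlapped the next in that order, and *Odf3* was lowest at 15.4 ± 2.27. In WT round spermatids *Odf1* led at 1501 ± 36, ahead of *Odf2* (1266 ± 13), *Akap4* (1212 ± 38.8) and *Ropn1l* (1028 ± 7.93), none of which overlapped its neighbour. Only *Cabyr* and *Fscb* were neighbours with overlapping ranges there.

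In WT condensing spermatids *Odf1* was at 2727 ± 380 CPM per kilobase and *Akap4* (1392 ± 318) and *Odf2* (1178 ± 194) overlapped below it. In WT spermatozoa *Odf1* was at 14204 ± 252 (SD, n = 2), while the next gene, *Odf2*, was at 625 ± 1.53 and *Akap4* at 473 ± 31.3. *Odf3* was the lowest of the 10 in all groups of libraries.

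**Figure D3:**
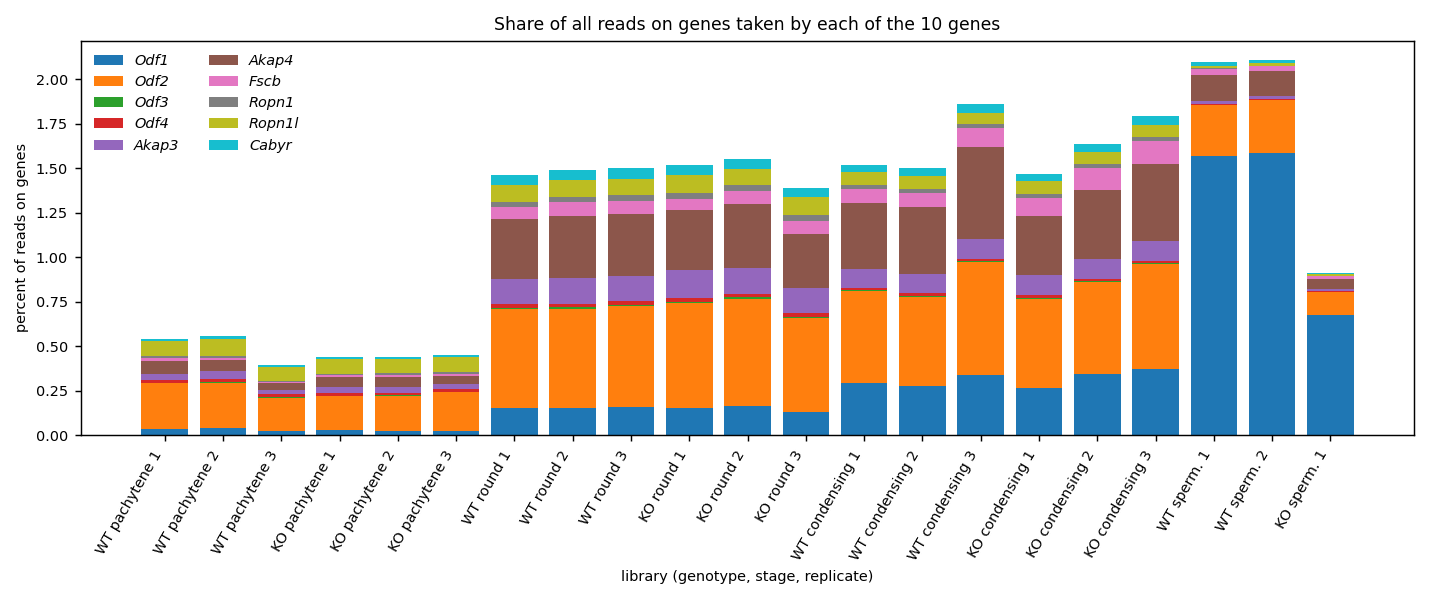
Percent of all reads on genes taken by the 10 genes in each of the 21 libraries, stacked by gene. The bars rise from 0.395% to 0.555% in pachytene spermatocytes to 1.39% to 1.55% in round spermatids, and in spermatozoa most of each bar is *Odf1*.

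Together the 10 genes took 0.395% to 0.555% of reads on genes in the pachytene libraries, 1.39% to 1.55% in round spermatids, 1.47% to 1.86% in the condensing fraction and 2.1% and 2.11% in the WT spermatozoa libraries. *Odf2* made up 47% of their reads in WT pachytene cells, 37.7% and 33.9% in round and condensing spermatids and 14% in spermatozoa. *Odf1* went the other way, from 6.33% through 10.5% and 18.5% to 74.8%.

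The genotype comparison asked whether the loss of H2A.L.2 changed these RNAs. None of the 10 genes passed the test in any of the 3 stages, and the estimates were small. In pachytene spermatocytes they ran from -0.27 for *Odf1* to 0.23 for *Fscb* on the log2 scale, KO minus WT, with adjusted p of at least 0.665 (edgeR). Of 12236 genes, 0 (0%) were called there and 815 had an unadjusted p under 0.05, none of them a member. The genotypes did not separate for any of the 10 genes, and did for 11.4% of all genes.

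Leaving out WT pachytene replicate 3, the lowest library, moved *Odf1* to -0.49 (adjusted p = 0.0485, edgeR), so that 1 of the 10 was called, with 243 of 12555 genes called in all. The libraries concerned were 348 and 378 normalized CPM in WT against 243, 238 and 236 in KO. The summed transition protein and protamine RNAs were also higher in these 2 WT libraries than in the KO libraries, as given above, and their part in the *Odf1* value was not tested.

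In round spermatids the estimates ran from -0.07 to 0.15, the widest 95% interval bounds over the 10 genes were -0.28 and 0.36, and adjusted p was at least 0.956 (edgeR). *Akap4* was at 3537, 3763 and 3705 normalized CPM in WT and 3455, 3843 and 3160 in KO, and *Odf2* at 5863, 5942 and 5983 in WT and 6015, 6422 and 5463 in KO. The KO libraries lay on both sides of the WT libraries in both genes. Over all 12804 genes 2 were called (0.0156%). The genotypes overlapped for each of the 10 genes, and did not for 9.89% of all genes. When same-numbered libraries were paired by a replicate block, 61 of the 12804 genes passed, none of them among the 10.

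In condensing spermatids, *Fscb* had the largest estimate, with 808, 783 and 1110 normalized CPM in WT and 975, 1300 and 1373 in KO. The genotypes overlapped, since WT replicate 3 exceeded KO replicate 1. The log2 difference was 0.42 (SE 0.17, 95% interval from 0.06 to 0.78, unadjusted p = 0.0258, adjusted p = 0.708, edgeR), and it did not pass in any of 13 alternatives, where it ran from 0.32 to 0.61. *Ropn1* was the single gene whose genotypes did not overlap, at 226, 203 and 233 in WT and 240, 239 and 264 in KO, with a log2 difference of 0.15 (adjusted p = 0.886, edgeR). Such separation was seen in 12.1% of the 13734 genes tested, of which 1 was called (0.00728%). The other 8 estimates lay between -0.10 and 0.15. Over all 10 genes the widest 95% interval bounds were -0.51 and 0.78.

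**Figure D4:**
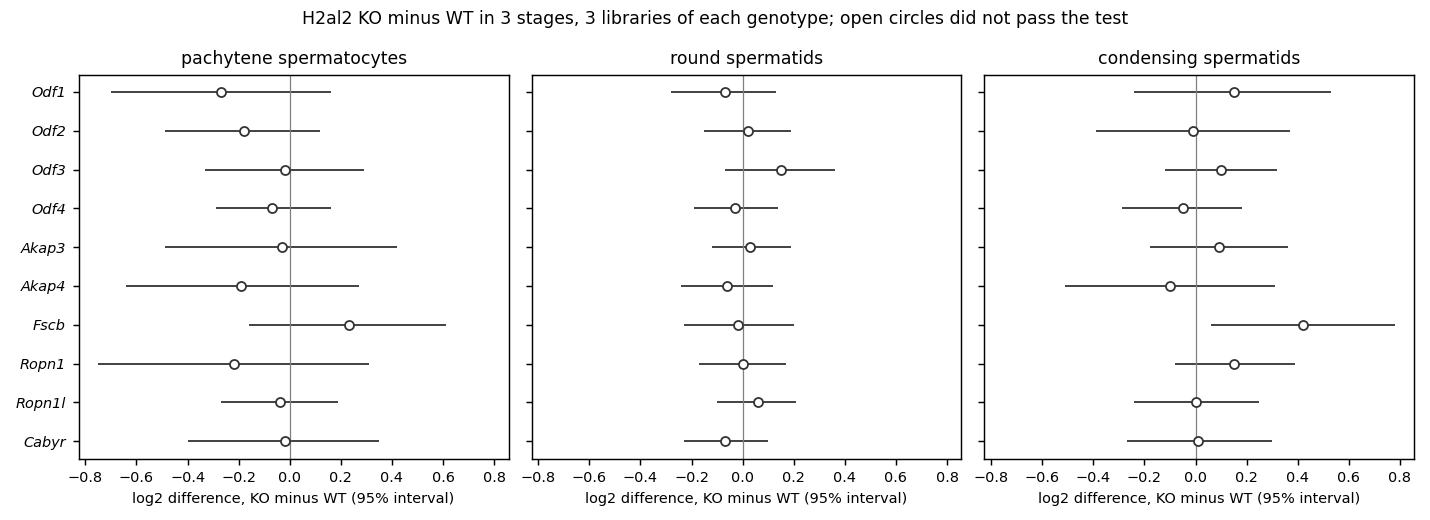
Log2 difference of KO minus WT for each gene in 3 stages, with 95% intervals that are not adjusted for the number of genes. None of the 30 points passed the test, the intervals are narrowest in round spermatids, and *Fscb* in condensing spermatids is the point whose interval lies farthest from 0.

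The difference of the KO effect between stages was tested directly on 18 libraries. Between condensing and round spermatids 0 of 14479 genes were called (0%), with 407 at an unadjusted p under 0.05. The largest of the 10 estimates was 0.44 for *Fscb* (SE 0.23, unadjusted p = 0.0705, adjusted p = 1, edgeR). Between round and pachytene cells 0 genes were called (0%), with 1050 at an unadjusted p under 0.05, and the 10 estimates ran from -0.23 to 0.24. Without replicate 3 of every group, *Odf1* (0.61, adjusted p = 0.0436) and *Odf2* (0.55, adjusted p = 0.0186) were called there (edgeR), 2 of the 10. Over all genes, 731 of 14612 were called in that setting.

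In spermatozoa the single KO library was below both WT libraries for all 10 genes. No replicate check is possible and no test was made. *Odf1* was at 6866 normalized CPM against 15892 and 15498, *Odf2* at 1290 against 2925 and 2935 and *Akap4* at 600 against 1499 and 1365. *Akap3* kept the largest share of the WT mean (74.2%) and *Cabyr* the smallest (26.8%, from 189 reads). Of 9313 genes with at least 10 CPM in WT spermatozoa, 43.8% were below both WT libraries. The median log2 ratio of KO to WT was -1.05 over the 10 genes and 0.01 over those 9313.

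The 10 genes took 0.911% of reads on genes in the KO spermatozoa library (95% exact Clopper-Pearson interval 0.9% to 0.921%, which covers counting error only). *Odf1* made up 74.3% of their reads, as against 74.8% in WT. Summed markers of other cells differed as well. Transition protein and protamine RNAs were at 2274 normalized CPM in the KO library against 6643 to 8369 in WT, epididymis epithelium markers at 556 against 1807 to 1928, and macrophage markers (5 of 5 detected) at 962 against 199 to 211. Their part in the lower levels was not tested.

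The genes followed each other closely across the 18 libraries of 3 stages, with exceptions. Pearson's r of log2(CPM + 1) had a median of 0.912 over the pairs of members, was highest for *Akap3* and *Ropn1* (0.997) and lowest for *Odf1* and *Ropn1l* (-0.061). These values describe libraries that share stage, fraction and scaling. Among 8363 genes with at least 10 CPM, the genes outside the set most like *Odf1* were *Wbscr25*, *4930571K23Rik* and *Acsl1*, an acyl-CoA synthetase (r = 0.999 each). Those most like *Akap4* were *Gm5893*, *Prkar2a*, which encodes a regulatory subunit of protein kinase A, and *Spz1* (r = 0.998 each).

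*Prkar2a* was also on a list of 6 protein kinase A subunits. From pachytene spermatocytes to round spermatids, 2 of the 6 rose in WT and none fell (median log2 change 0.15), namely *Prkar2a* (2.75, SE 0.27) and *Prkar1b* (1.94, SE 0.26). Into condensing spermatids 1 rose and 3 fell. The catalytic subunit genes went apart there, with *Prkacb* at 1.05 (SE 0.23) and *Prkaca* at -0.67 (SE 0.16). In WT spermatozoa *Prkacb* was higher again (2.33, SE 0.21) and *Prkar2a* lower (-1.38, SE 0.19). Of the 6, 3 were called higher and 2 lower. Over all genes tested in WT, 34.4% were called higher in round spermatids. Into condensing spermatids 28.3% were called higher and 21.8% lower, and into spermatozoa 36.6% and 35.8%. The same shares apply to the lists that follow.

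Of 13 other genes with the AKAP name, 11 were tested. In WT round spermatids 8 were higher than in pachytene spermatocytes and 3 lower (median 1.20), with *Akap1*, which anchors the kinase at mitochondria, at 2.47 (SE 0.25) and the nuclear *Akap8* at -1.86 (SE 0.12). In WT condensing spermatids 2 rose and 3 fell, and in spermatozoa 3 rose and 6 fell. Among these, *Akap13* was the gene with the largest rise into spermatozoa (3.11, SE 0.15). What part the epididymis and macrophage RNA described above had in the rises of *Akap13* and *Prkacb* was not tested.

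Of 8 genes tied to the outer dense fibers by name or by their products, 7 were tested. In WT round spermatids 5 of them rose and 1 fell (median 1.93). *Tssk6*, which encodes a testis-specific kinase, rose at each step, by log2 changes of 2.52 (SE 0.25), 1.03 (SE 0.24) and 1.33 (SE 0.17), and was the only one of the 7 called higher in condensing spermatids (4 fell) or in spermatozoa (6 fell). *Odf3l1*, related in name to *Odf3*, fell by a log2 change of -1.31 (SE 0.19) into condensing spermatids and by -2.11 (SE 0.21) into spermatozoa.

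Genes tied to the fibrous sheath, 9 of 10 found and tested, included sperm forms of glycolytic enzymes. In WT round spermatids 6 rose and 2 fell (median 1.61), among them *Aldoart1*, a sperm aldolase (2.59, SE 0.22), *Gapdhs*, the sperm glyceraldehyde-3-phosphate dehydrogenase (2.51, SE 0.27), and *Slc25a31*, an ADP/ATP carrier (-1.01, SE 0.12). None rose and 4 fell in WT condensing spermatids, and none rose and 6 fell in spermatozoa, with *Spa17* at -2.77 (SE 0.19).

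Of 14 genes of the midpiece, the annulus and the joint of head and tail, 11 rose and none fell in WT round spermatids (median 1.71), with *Smcp*, a mitochondrial capsule protein, at 2.55 (SE 0.23). *Smcp* was the only one of the 14 called higher in WT condensing spermatids (0.67, SE 0.22), where 6 fell, and 13 fell and none rose in spermatozoa (median -1.83). In the genotype comparisons no gene of these 5 lists was called in any stage.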

How the data were processed

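The authors prepared stranded, ribosomal RNA-depleted libraries, sequenced them as 75-base paired ends on an Illumina NextSeq 500, aligned the reads with STAR (2.7.11b, from the submitters' processing notes) to mm10 and counted them over exons with HTSeq on the reverse strand. They deposited raw read counts per gene, unnormalized, in 1 table per library. The 5 rows that name no gene, 34.6% to 57.7% of counted reads, were left out.

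Levels are CPM with TMM factors. Tests used edgeR 4.0.16 (R 4.3.3): quasi-likelihood F test, TMM, filterByExpr, Benjamini-Hochberg adjustment over all genes tested, threshold 0.05, with the standard error taken as the log2 change divided by the square root of F. Stage changes were fitted on the 9 libraries of a genotype, spermatozoa on 5 WT libraries, genotype within each stage, and differences of the KO effect on 18 libraries. All 10 members passed the filter in each fit. Each test was tried first on simulated counts, except that of KO condensing against KO round spermatids. Exon lengths were taken from GENCODE M21, which covered 95.4% of genes.

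Alternatives were the DESeq2 Wald test (1.42.0), DESeq2 size factors, library size only, no filter, no mitochondrial genes, all 18 libraries in 1 fit, the replicate block, WT round spermatid replicates 2 and 3 summed, and each replicate left out. Same-numbered KO and WT round spermatid libraries deviated together (r = 0.384, 0.191 and 0.102), a pairing taken from these data, while pachytene (-0.0606 to -0.283) and condensing libraries (-0.0687 to 0.207) did not in every pair.

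*H2afb1* is an older symbol of 2 RefSeq genes. The other one is counted as *Gm14920*, so *H2afb1* was read as the gene of H2A.L.2. The members, related lists and markers were chosen with earlier results of these data known. All members are described, and from each related list the genes with the largest called changes, at most 2 per direction and comparison, were eligible to be named. *Sycp3* and *Acrv1* are named as examples of the marker lists.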

Additional observations from a re-analysis of the deposited data

How the results depend on the processing

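Counts of the 10 genes called stayed within 1.5 times of those reported under all alternatives except these. Into WT condensing spermatids 7 genes were called with the DESeq2 Wald test, with DESeq2 size factors and in the fit on all 18 libraries, against 4. On leaving out single libraries the KO effect in pachytene spermatocytes gave 0 to 1 called genes, and its difference between round and pachytene cells 0 to 2. With the replicate block, counts were 9 of 10 for WT round against pachytene cells (*Ropn1l* lost, adjusted p = 0.0509), and the block changed no other call of the members. Over all genes, called KO effects ranged over the alternatives from 0 to 243 in pachytene spermatocytes, from 1 to 264 in round spermatids and from 1 to 27 in condensing spermatids, and from 0 to 731 for the difference between round and pachytene cells.
The summed level of the 10 genes moved by more than its replicate spread (counting error in KO spermatozoa) in these settings. With library size only it was 4429 normalized CPM in KO pachytene spermatocytes (4098 reported), 14824 in WT round spermatids (15750) and 9106 in KO spermatozoa (9240), and with DESeq2 size factors 16097 in WT round spermatids, 22257 in WT spermatozoa (20985) and 10137 in KO spermatozoa.
Of 1250 single-gene values under an alternative, 1171 kept direction and side of the threshold, 15 lost the call, 15 gained it and 49 changed sign. All 49 were in KO effects or their differences, and none passed the threshold in either setting. On leaving out single libraries (replicate numbers for the differences), the KO effect in pachytene spermatocytes ran from -0.10 to 0.06 for *Odf3*, -0.25 to 0.17 for *Akap3*, -0.40 to 0.02 for *Akap4* and -0.20 to 0.09 for *Cabyr*. That in round spermatids ran from -0.16 to 0.02 for *Odf1*, -0.03 to 0.08 for *Odf2*, -0.01 to 0.06 for *Akap3*, -0.14 to 0.00 for *Akap4*, -0.09 to 0.07 for *Fscb* and -0.03 to 0.06 for *Ropn1*. That in condensing spermatids ran from -0.12 to 0.14 for *Odf2*, -0.16 to 0.01 for *Odf4*, -0.22 to 0.12 for *Akap4*, -0.03 to 0.06 for *Ropn1l* and -0.08 to 0.13 for *Cabyr*. The difference between condensing and round spermatids ran from -0.04 to 0.01 for *Odf2*, -0.12 to 0.05 for *Odf4* and -0.06 to 0.01 for *Akap4*. The difference between round and pachytene cells ran from -0.03 to 0.61 for *Odf1*, -0.05 to 0.24 for *Odf4*, -0.11 to 0.37 for *Akap3*, -0.09 to 0.46 for *Akap4* and -0.16 to 0.24 for *Cabyr*. Otherwise, on the log2 scale, the replicate block gave 0.01 for *Akap3* and 0.00 for *Cabyr* in pachytene spermatocytes, summed WT round spermatid replicates gave 0.02 for *Fscb* in round spermatids, and library size only gave -0.03 for *Ropn1l* and -0.01 for *Cabyr* in condensing spermatids. For the difference of *Cabyr* between round and pachytene cells, library size only gave 0.01, and no filter and no mitochondrial genes gave 0.03 each. The cause of these changes was not tested.
Counts are relative to each library, so a change in a few abundant RNAs moves all others. Spermatozoa rest on 2 WT libraries and 1 KO library.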
